A study of Mus musculus with 20 samples.

Results

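The genes described here mark the inhibitory projection neurons of the striatum and of the central part of the amygdala. They were chosen by symbol, as the probe sets that name Drd1, Drd2, Adora2a, Ppp1r1b, Rgs9, Tac1, Pde10a, Gpr6 or Isl1 as their single gene. Of these 9 genes 8 were measured, each by 1 probe set, among 19933 symbols with a probe set of their own. Adora2a, an adenosine receptor, was not analysed here. Amygdala RNA of 20 male mice was measured on whole-transcript gene arrays with 1 mouse per array, in 4 groups of 5. KO stress mice lacked the serotonin transporter 5-HTT by their label and spent 1 min in water of 22 °C according to the labels. KO con mice had the same genotype and spent 1 min in the home cage, while WT stress and WT con mice were wildtype animals given the same 2 conditions. All mice were of the C57BL/6 background, descended from heterozygous parents, were weaned at 21 days, lived alone from 5 months and were 7 months old. The knockout is constitutive and not limited to the amygdala. Left and right amygdalae of each mouse were merged without separating nuclei, and the whole procedure was over within minutes of the stressor.

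The amygdala holds cells of different origin. Its basal and lateral nuclei resemble cortex and consist mainly of glutamatergic neurons, while its central nucleus and the transition zone to the striatum consist mainly of GABAergic projection neurons that share much of their expression with striatal medium spiny neurons. In the striatum these neurons form a pair of classes. Direct pathway neurons carry the dopamine D1 receptor Drd1, which raises cAMP, and make substance P from Tac1. Indirect pathway neurons carry the D2 receptor Drd2, which lowers cAMP, together with Adora2a and Gpr6. Both classes carry Ppp1r1b, Rgs9 and Pde10a, which act between the receptors, cAMP and protein phosphorylation. Isl1 is a transcription factor that direct pathway neurons need during development.

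The values are log2 signals, so that a difference of 1 is a doubling. Levels of different genes were not set against each other, since probe sets differ in brightness. Slc6a4, the gene of 5-HTT and the target of the knockout, separated the genotypes completely, but the arrays labelled KO were the higher ones. It lay between 8.10 and 8.38 in KO stress, between 8.11 and 8.20 in KO con, between 6.30 and 6.55 in WT stress and between 5.82 and 7.82 in WT con. The position of its probes relative to the disrupted exon was not known, and KO below means the arrays labelled KO. Array medians lay between 6.59 and 6.82. The first replicates of WT stress and of WT con stood somewhat apart, with median correlations of 0.961 and 0.978 with the other arrays against 0.980 or more elsewhere, and the group medians and list counts that rest on them are given without them as well.

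RefSeq promoters (build GRCm38.p6) were at hand for 7 of the 9 genes, without Adora2a and Ppp1r1b. The 250 bases before the transcription start are shown for 4 genes, Tac1, Gpr6 and Rgs9 because their signals varied together between mice, and Isl1 because its signal did not follow them. Capitals mark matches, on either strand, to TGACG (the core of the cAMP response element), GGGCGG (the GC box) and TATAAA (the TATA box). The windows are chr6:7554811-7555060, plus strand for Tac1, chr10:41072291-41072540, minus strand for Gpr6, chr11:109298182-109298431, minus strand for Rgs9 and chr13:116309689-116309938, minus strand for Isl1, each written in the direction of its gene.
Tac1: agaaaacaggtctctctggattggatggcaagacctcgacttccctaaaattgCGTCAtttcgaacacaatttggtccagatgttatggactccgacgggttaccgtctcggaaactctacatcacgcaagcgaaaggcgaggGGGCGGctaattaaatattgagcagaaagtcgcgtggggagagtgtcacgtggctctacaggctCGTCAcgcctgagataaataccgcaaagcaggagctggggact
Gpr6: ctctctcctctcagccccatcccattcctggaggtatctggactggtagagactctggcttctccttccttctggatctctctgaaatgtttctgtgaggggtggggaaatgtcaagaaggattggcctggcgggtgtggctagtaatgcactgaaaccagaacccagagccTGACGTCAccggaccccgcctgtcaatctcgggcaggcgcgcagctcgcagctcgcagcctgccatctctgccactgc
Rgs9: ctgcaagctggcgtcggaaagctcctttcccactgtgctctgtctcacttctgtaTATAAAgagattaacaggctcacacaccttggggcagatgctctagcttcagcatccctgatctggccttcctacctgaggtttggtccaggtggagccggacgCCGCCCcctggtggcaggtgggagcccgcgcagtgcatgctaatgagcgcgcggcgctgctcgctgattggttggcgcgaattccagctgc
Isl1: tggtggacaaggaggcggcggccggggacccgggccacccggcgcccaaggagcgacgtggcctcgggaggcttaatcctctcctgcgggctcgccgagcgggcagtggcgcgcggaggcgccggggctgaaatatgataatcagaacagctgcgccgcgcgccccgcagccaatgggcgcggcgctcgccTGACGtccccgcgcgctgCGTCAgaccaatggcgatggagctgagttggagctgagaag
The 7 genes had 9 promoter entries, as Drd1 and Pde10a had 2 each. TGACG was found in 3 of the 7 genes (3 of the 9 entries), and each of them held 2 matches. In Tac1 they began 197 and 43 bases before the start. In Gpr6 they overlapped, 78 and 75 bases before the start, and in Isl1 they lay 59 and 41 bases before it. The same motif occurs in 17.8% of the 32851 promoters of this length. GGGCGG was found in 5 of the 7 genes, or 5 of the 9 entries (32.7% of all promoters). In Drd1 and Pde10a only 1 of the 2 entries held it. TATAAA was found in Rgs9 alone, 1 of the 9 entries (12.4% of all promoters). A match says only that these letters are present in the window.

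Among the receptors, Drd1 had log2 signals of 8.90, 8.52, 8.71, 8.81 and 7.89 in KO stress (replicates 1 to 5). They were 9.57, 9.08, 7.81, 8.04 and 9.35 in KO con. In WT stress they were 9.66, 9.30, 9.38, 7.45 and 7.81, and in WT con 9.85, 8.19, 7.97, 7.39 and 7.94. Each group therefore held mice with high and mice with low Drd1, the groups overlapped in every comparison, and the lowest and highest arrays were both WT con. The means were 8.57 ± 0.40 in KO stress, 8.77 ± 0.79 in KO con, 8.72 ± 1.01 in WT stress and 8.27 ± 0.93 in WT con (SD, n = 5 each).

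Drd2, the receptor of the indirect pathway, gave 9.60, 9.80, 9.40, 10.13 and 9.15 in KO stress and 10.05, 9.80, 8.90, 9.52 and 10.06 in KO con. It gave 9.91, 10.07, 9.99, 8.39 and 8.45 in WT stress and 10.15, 9.28, 9.18, 9.25 and 8.81 in WT con. WT stress fell into 3 high and 2 low mice, the 2 low ones below every WT con array. Gpr6, an orphan receptor that raises cAMP in the same neurons, gave 7.99, 8.06, 8.13, 8.42 and 7.13 in KO stress and 8.24, 8.49, 6.96, 7.53 and 8.75 in KO con. In WT stress it gave 8.95, 8.29, 8.64, 6.87 and 6.80, and in WT con 9.60, 7.37, 7.13, 7.39 and 7.27. The same 2 WT stress mice were low again, and WT con replicate 1 lay far above the other WT con mice. Gpr6 had the smallest share of its variance between groups, 1.42%.

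Tac1, the precursor of substance P and neurokinin A, spread most of all. It was 10.20, 9.36, 10.21, 9.69 and 7.53 in KO stress and 10.48, 10.71, 8.50, 9.05 and 10.51 in KO con. It was 9.72, 10.65, 10.97, 6.70 and 8.13 in WT stress and 10.78, 9.35, 8.37, 7.58 and 8.07 in WT con. WT stress alone spanned the whole range of the 20 arrays, its replicate 4 being the lowest and its replicate 3 the highest.

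Ppp1r1b encodes DARPP-32, which inhibits protein phosphatase 1 once it is phosphorylated by the cAMP-dependent kinase. Its signals were 9.63, 9.15, 9.06, 9.65 and 8.27 in KO stress and 10.63, 9.65, 7.35, 8.07 and 9.76 in KO con. In WT stress they were 10.12, 9.98, 9.87, 9.19 and 7.94, and in WT con 10.72, 8.50, 7.80, 7.86 and 7.71. Here WT stress replicate 4 was not among the low mice, unlike in Drd1, Drd2, Gpr6 and Tac1, and the 3 lowest WT con mice lay below every WT stress mouse. Rgs9, which speeds the shut-off of G proteins below the dopamine receptors, was 9.80, 9.58, 9.88, 10.07 and 7.89 in KO stress and 10.39, 9.97, 8.32, 8.74 and 10.36 in KO con. It was 10.77, 10.49, 10.66, 7.33 and 7.66 in WT stress and 10.62, 9.39, 8.34, 7.76 and 8.28 in WT con. Of the 5 WT stress mice 2 lay above every WT con mouse and 2 below every one. Pde10a, the phosphodiesterase that breaks down cAMP and cGMP in both classes of neuron, was 9.63, 9.62, 9.65, 10.16 and 8.59 in KO stress and 10.75, 9.86, 8.68, 8.70 and 10.36 in KO con. It was 10.96, 10.38, 10.61, 8.60 and 8.86 in WT stress and 10.91, 9.48, 8.52, 8.49 and 8.54 in WT con. KO stress replicate 5 was the lowest of its group in Pde10a, as it was in every other gene of the list but Isl1.

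Isl1 behaved differently. It was 8.24, 7.84, 7.96, 7.31 and 7.77 in KO stress and 7.50, 8.28, 7.95, 7.87 and 7.88 in KO con. In WT stress it was 6.98, 7.92, 8.15, 6.83 and 6.57, and in WT con 7.51, 7.52, 7.78, 8.18 and 7.91. Only WT stress held values below 7.31, in 3 of its 5 mice, and WT stress replicate 1 was low in Isl1 while it was high in the other 7 genes.

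**Figure D1:**
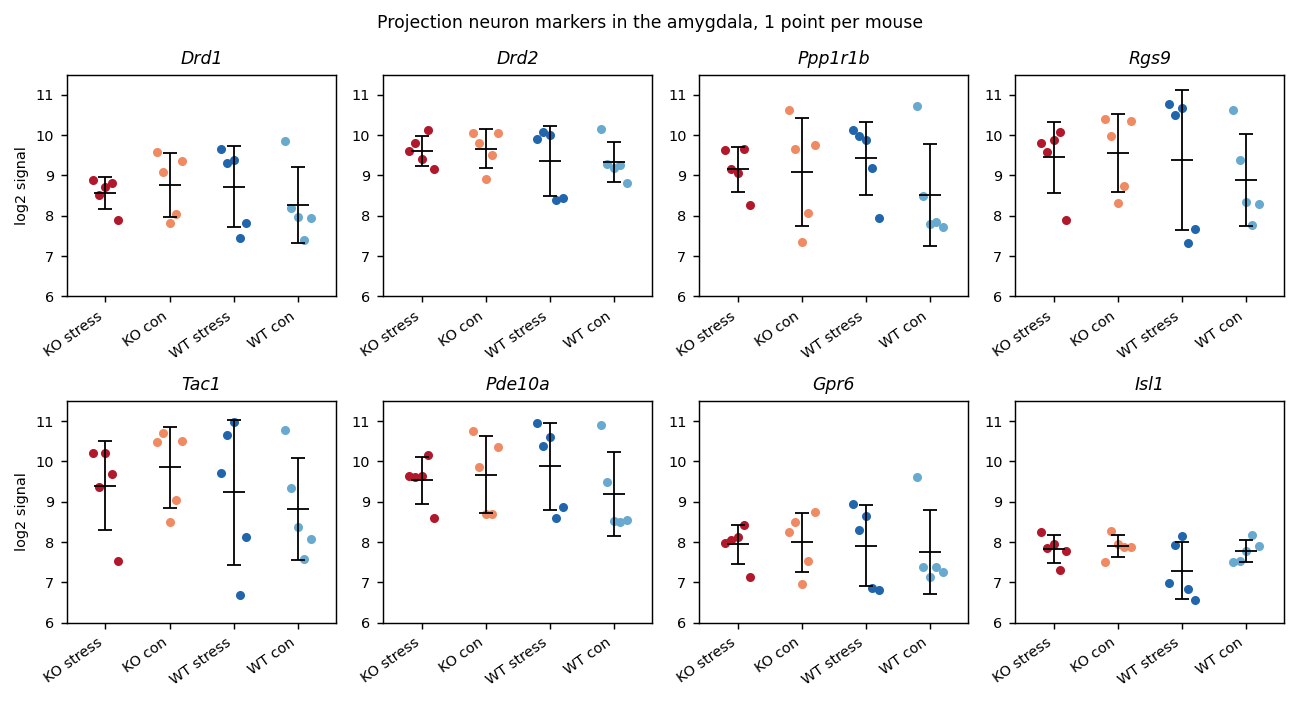
Log2 signal (y axis) of the 8 measured genes by group (x axis, 5 arrays each). Each point is a mouse in the order of replicates 1 to 5, and bars are the mean ± SD. In each gene but Isl1 the groups contain both high and low mice, as in Tac1, where WT stress runs over 6.70 to 10.97.

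**Figure D2:**
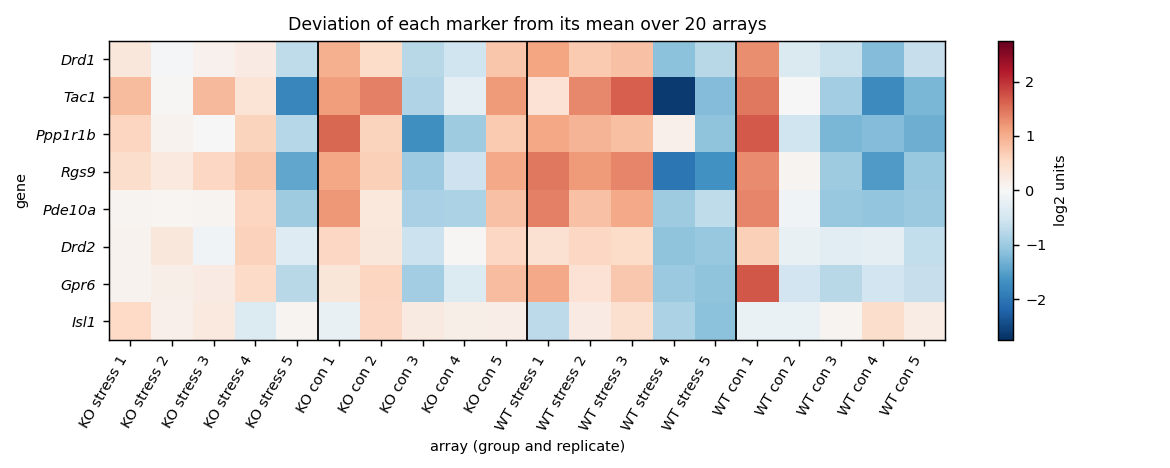
Deviation of each gene (rows) from its own mean over 20 arrays, in log2 units (colour), for each array (columns, by group and replicate). The upper 7 rows change colour together from mouse to mouse, and the bottom row, Isl1, does not.

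The spread inside the groups was far wider than for most genes. The pooled within-group SD was 1.33 for Tac1, 1.22 for Rgs9, 1.07 for Ppp1r1b, 0.934 for Pde10a, 0.848 for Gpr6, 0.820 for Drd1 and 0.583 for Drd2. Over all 28767 probe sets the median SD was 0.176 and the 90th percentile 0.338. Isl1, with an SD of 0.435, also lay above that percentile. The share of variance that lay between the 4 groups was 10.6% or less for the 7 other genes and 27.3% for Isl1, while the median of all probe sets was 14.9%.

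Averaged over the 8 genes, each centred on its mean, the deviation was 0.38, 0.13, 0.26, 0.41 and −0.84 in KO stress. It was 0.84, 0.61, −0.81, −0.43 and 0.76 in KO con, 0.77, 0.77, 0.92, −1.20 and −1.09 in WT stress and 1.15, −0.23, −0.73, −0.88 and −0.80 in WT con. The average was above 0 in 4 of 5 KO stress mice, 3 of 5 KO con mice, 3 of 5 WT stress mice and 1 of 5 WT con mice. The mice did not split into clearly separate classes, as the largest gap between neighbouring arrays was 0.358 in a range of 2.35.

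Group means were compared with limma on all 20 arrays, with Benjamini-Hochberg adjustment over all probe sets. A gene also counted as changed at the study's criterion when its fold was over 1.5 with an unadjusted p under 0.05. None of the 8 genes passed either threshold in any of the 4 comparisons or in the interaction, and the count at an unadjusted limma p under 0.05 alone was 0 as well, also with the methods' t-test. Of all probe sets 1.13% had such a p between KO stress and KO con, 3.54% between WT stress and WT con, 3.57% between KO con and WT con, 9.28% between KO stress and WT stress and 2.52% in the interaction. Other settings on all 20 arrays brought single genes below it. Isl1 was there between KO stress and WT stress after quantile normalization, with arrays centred on their medians, with probe sets of a mean of 5 or more and with trend and robust eBayes, where 8.94% to 9.68% of all probe sets were. After quantile normalization it was there between WT stress and WT con as well (3.76% of all probe sets), and Tac1 between KO con and WT con with array weights (9.78%). The adjusted threshold was passed by 0.00348% of all probe sets between KO stress and WT stress and by 0% elsewhere. Non-overlapping groups were found for 0 of the 8 genes, and for 0.289% of all probe sets between KO stress and KO con, 0.257% between WT stress and WT con, 0.855% between KO con and WT con and 1.02% between KO stress and WT stress. The smallest unadjusted p among the 40 values belonged to Isl1. Standard errors are of the difference, and the exact permutation tests of 5 mice against 5 are two-sided and cannot go below 0.00794.

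In KO mice the means after stress and at rest differed by less than the spread between mice. The median difference of the 8 genes, KO stress minus KO con, was −0.09, and 1 of 8 was positive (Ppp1r1b, 0.06). Over all probe sets 48.5% were positive and 0.139% met the study's criterion, against 0 of the 8 genes. The widest difference was that of Tac1, −0.45 (SE 0.79, exact permutation p = 0.548). The values turned on single mice. Without KO stress replicate 5, the low mouse, the median was 0.08 with 6 of 8 genes positive, and Rgs9 was 0.28 higher and Tac1 0.02 higher in KO stress. Without KO con replicate 1 or 5 the median was 0.03 or 0.04 and 5 genes were positive, and without KO con replicate 2 it was −0.01 with 3 positive. In the other direction the median was −0.38 and −0.26 without KO con replicate 3 or 4 and −0.17 without KO stress replicate 1, each with 0 of 8 positive, −0.22 without KO stress replicate 4 with 1 positive, and −0.14 without KO stress replicate 3 with 2 positive.

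Stress in WT mice came with higher means in 7 of 8 genes (6 of 8 with arrays centred on their medians), with a median of 0.43, but the mice overlapped widely. All probe sets had a median of 0.03 with 62.8% positive, and 0.24% met the study's criterion, against 0 of the 8 genes. Ppp1r1b averaged 9.42 ± 0.90 in WT stress and 8.52 ± 1.27 in WT con (SD, n = 5 each), a difference of 0.90 (SE 0.63, exact permutation p = 0.214). Pde10a averaged 9.88 ± 1.08 in WT stress and 9.19 ± 1.05 in WT con, a difference of 0.69 (SE 0.56, exact permutation p = 0.325). Drd2 stayed at 9.36 in WT stress and 9.34 in WT con. Isl1 went the other way, with 7.29 ± 0.70 in WT stress and 7.78 ± 0.28 in WT con, a difference of −0.49 (SE 0.26, limma p = 0.0762, exact permutation p = 0.175). The comparison depended on single mice in both directions. Without WT stress replicate 3 the median was 0.08 and 4 of 8 genes were positive, without WT stress replicate 1 it was 0.19 with 5 positive, and without WT stress replicate 2 it was 0.14 with 6 positive. It was also lower without WT con replicate 4 (0.16) or 5 (0.28), and higher without WT stress replicate 4 (0.86) or 5 (0.68). Without WT con replicate 1 the median was 0.87 and Ppp1r1b (1.45) and Pde10a (1.12) met the study's criterion, and without it and WT stress replicate 1 the median was 0.60 and Ppp1r1b (1.28) met it. Without WT stress replicate 2 or 3, Isl1 met it as well, at −0.65 and −0.70.

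Between genotypes at rest, all 8 genes had higher means in KO con than in WT con, where 50.1% of all probe sets did. All of them but Isl1 varied together between mice, as given below, so the 8 are not separate observations. The median difference was 0.49, and 0.0487% of all probe sets met the study's criterion, against 0 of the 8 genes. Tac1 had the widest difference, with 9.85 ± 1.00 in KO con and 8.83 ± 1.27 in WT con (SD, n = 5 each), a difference of 1.02 (SE 0.79, 95% interval −0.64 to 2.68, exact permutation p = 0.206). Rgs9 differed by 0.68 (SE 0.73), Ppp1r1b by 0.58 (SE 0.63) and Isl1 by 0.11 (SE 0.26). With single arrays left out all 8 genes stayed higher in KO con, but the median ran over 0.22 (without KO con replicate 1) to 0.91 (without WT con replicate 1), and it was 0.31 without WT con replicate 4. With array weights in the fit Tac1 met the study's criterion, at 1.52.

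After stress the median difference was 0.05 between KO stress and WT stress and 5 of 8 genes were positive (4 of 8 with a median of 0.0060 after quantile normalization), against 41.3% of all probe sets. This median had no settled sign, since with single arrays left out it ran over −0.39 (without WT stress replicate 4) to 0.30 (without KO stress replicate 5 or WT stress replicate 3). Leaving out WT stress replicate 5 gave −0.30, leaving out KO stress replicate 4, 3 or 1 gave −0.09, −0.04 or −0.03, and leaving out WT stress replicate 2 or 1 gave 0.24 or 0.29. The number of positive genes fell to 2 without WT stress replicate 4 or 5 or KO stress replicate 3, to 3 without KO stress replicate 1 or 4, and was 6 at most. Of all probe sets 0.768% met the study's criterion, against 0 of the 8 genes. Isl1 averaged 7.82 ± 0.34 in KO stress and 7.29 ± 0.70 in WT stress (SD, n = 5 each), a difference of 0.53 (SE 0.26, limma p = 0.0552, adjusted p = 0.53, exact permutation p = 0.151). It met the study's criterion once KO stress replicate 4 was left out (0.66), and likewise without replicate 2 (0.69) or 3 (0.75) of WT stress. Pde10a was the widest in the other direction, at −0.35 (SE 0.56). Without WT stress replicate 1 and WT con replicate 1 the median was 0.29 with 6 of 8 positive.

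The interaction asks whether the stress difference itself differed between KO and WT mice. It was negative in 7 of 8 genes with a median of −0.63, while 40.3% of all probe sets were positive and 0.591% met the study's criterion, against 0 of the 8 genes. Tac1 had −0.85 (SE 1.12), Ppp1r1b −0.84 (SE 0.90), Pde10a −0.83 (SE 0.79) and Isl1 0.42 (SE 0.37), and each 95% interval included 0. With single arrays left out the median ran over −1.05 (without WT con replicate 1) to −0.30 (without KO stress replicate 5), and 5 to 7 of 8 genes were negative. It was −0.34, −0.42 and −0.36 without WT stress replicate 1, 2 or 3, −0.96 without WT stress replicate 5 and −0.39 without WT con replicate 4, and without the first replicates of both WT groups −0.76. The stress difference of each genotype and the 2 genotype differences share mice, so the 5 comparisons are not independent of each other. The genes are not independent either, since all but Isl1 varied together between mice.

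**Figure D3:**
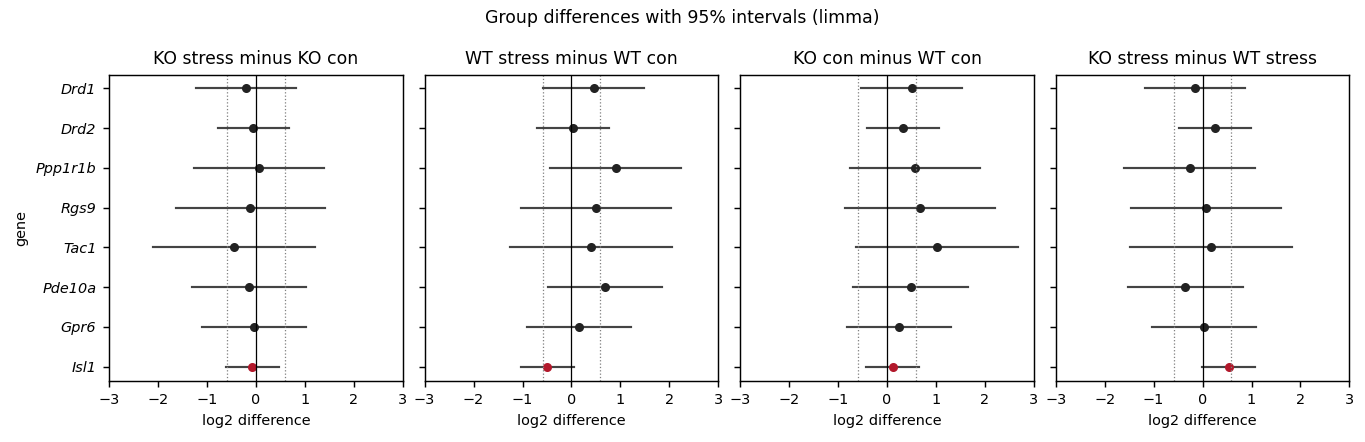
Difference of group means in log2 units (x axis) with its 95% interval from limma for the 8 genes (rows) in 4 comparisons (panels). Dotted lines mark a fold of 1.5 in either direction, Isl1 is in red, and every interval includes 0.

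The markers varied together between mice of the same group. After subtracting group means, the 21 pairs of Drd1, Drd2, Gpr6, Tac1, Ppp1r1b, Rgs9 and Pde10a had Pearson r between 0.766 and 0.971 over 20 arrays, with a median of 0.904, and Spearman rho between 0.759 and 0.973. Permutation p-values within groups, adjusted over all 28 pairs of the 8 genes, were at most 0.000547 for r and 0.00137 for rho. The receptors of the opposite pathways were no exception. Drd1 and Drd2 had r = 0.890 and rho = 0.890, and r = 0.851 without the 2 arrays farthest from the median of Drd1. The closest pair was Drd1 and Pde10a (r = 0.971, rho = 0.958) and the loosest Ppp1r1b and Tac1 (r = 0.766, rho = 0.759). Without the 2 farthest arrays the 21 values lay between 0.701 and 0.957. Within the 9 arrays below the largest gap of the averaged deviation the median r was 0.507, ranging between −0.407 and 0.919, and within the 11 arrays above it 0.697, ranging between 0.236 and 0.946. All probe sets of an array share its RNA sample, hybridization and normalization.

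Over the 20 arrays Isl1 had no such relation. Its r with the other 7 genes lay between 0.0354 (Ppp1r1b) and 0.365 (Tac1) and its rho between −0.0195 and 0.374, with adjusted permutation p-values of 0.317 or more for r and 0.22 or more for rho. Without the 2 farthest arrays its r lay between −0.0399 and 0.283. Within the 9 lower arrays its r ran over −0.550 (Ppp1r1b) to 0.755 (Drd2), with 0.696 for Gpr6 and a median of 0.284, and within the 11 higher ones over −0.622 (Pde10a) to 0.461 (Tac1) with a median of −0.444. These are descriptions of arrays chosen by the values of the markers.

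**Figure D4:**
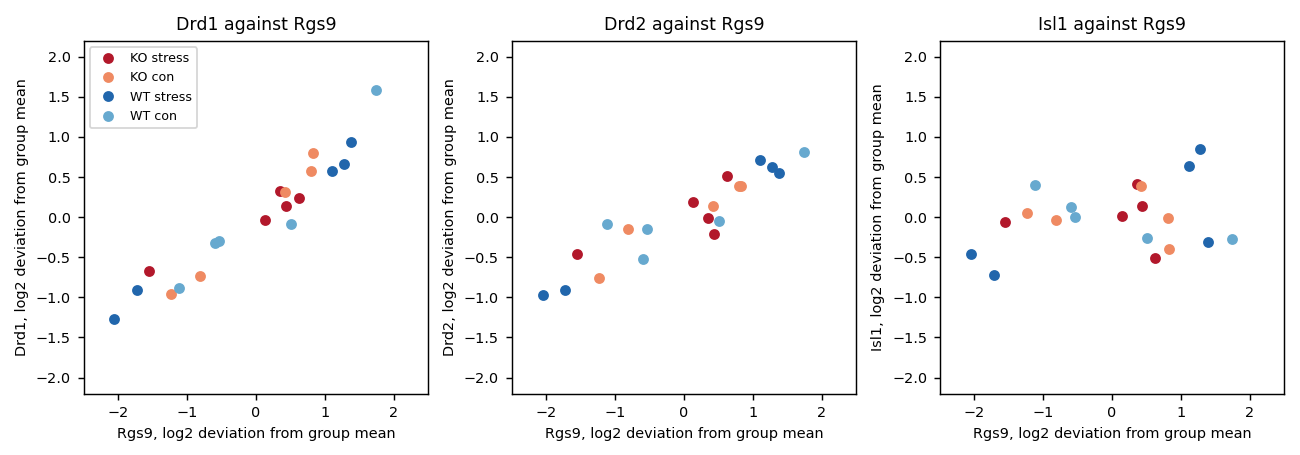
Deviation from the group mean in log2 units of Drd1, Drd2 and Isl1 (y axes) against that of Rgs9 (x axes) in 20 arrays, coloured by group. Drd1 (r = 0.961) and Drd2 (r = 0.922) follow a line on which all 4 groups mix, and Isl1 (r = 0.257) does not.

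Other genes of the table were ranked by their correlation with the markers' average over the 20 arrays, group means subtracted, as a description. Rxrg, a retinoid X receptor of striatal neurons, came first with r = 0.988, and stayed at 0.986 or more whichever array was left out. Serpina9 (0.970), Adamts3 (3 probe sets, 0.960, 0.947 and 0.942), Penk (0.954), Scn4b (0.952), Gprin3 (0.952), Rarb (0.951) and Fosb (0.949) followed. Penk is the precursor of the enkephalins of indirect pathway neurons, Scn4b a sodium channel subunit, Rarb a retinoic acid receptor and Fosb a transcription factor induced by neuronal activity. At the other end stood Trhde (−0.928), which degrades thyrotropin-releasing hormone, Cds1 (−0.922) and Ppm1e (−0.905). For single markers the most similar gene was Rxrg for Drd1 (0.968), Rgs9 (0.985) and Tac1 (0.953), Slc35d3 for Drd2 (0.937), Sh3rf2 for Ppp1r1b (0.963), Scn4b for Pde10a (0.981) and Adamts3 for Gpr6 (0.944). For Isl1 it was Gad2 (0.939), the enzyme that makes GABA at synapses.

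Many further genes of the same neurons ran with the markers, but not all. Of 17 measured genes shared by both classes of striatal projection neuron, 15 had r above 0.5 with the average (median 0.786), against 10.3% of all 28758 varying probe sets (median 0.0728). Of 5 indirect pathway genes 4 did (median 0.928), among them Gpr52 (0.928), a receptor that raises cAMP, and Sp9 did not (−0.341). Of 6 direct pathway genes 3 had r above 0.5 (median 0.676), namely Slc35d3 (0.940), the muscarinic receptor Chrm4 (0.931) and Pdyn (0.884), the precursor of the dynorphins. Ebf1 (0.469), Eya1 (−0.347) and Sfxn1 (−0.395) did not. Of 10 genes of central and intercalated amygdala neurons 5 had r above 0.5 (median 0.505), with Cartpt (0.692), Foxp2 (0.659) and Tshz1 (0.623) at the upper end. Prkcd, a kinase that marks a class of central amygdala neurons but is also abundant in thalamus, ran opposite at −0.857.

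The list of dopamine and adenosine signalling has Adcy5, Gnal, Gng7, Pde1b and Rgs7bp in common with the shared striatal list above. Of its 23 measured genes 11 had r above 0.5 (median 0.414). They included Adcy5 (0.786), the adenylyl cyclase of striatal neurons, Gnal (0.732), the G protein that couples Drd1 to it, and Tacr1 (0.770), the receptor of substance P, while Drd5, the other receptor of the D1 type, ran opposite (−0.590). Of 6 genes of dopamine neurons and their axons 1 did, Th (0.621), the rate-limiting enzyme of dopamine synthesis, and 2 were under −0.5, Slc18a2 (−0.788), which loads monoamines into vesicles, and Aldh1a1 (−0.504). Of 7 genes of cholinergic and pallidal neurons 5 did, such as Chat (0.709), which makes acetylcholine, while Zic1 ran opposite (−0.806).

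In bulk tissue, fewer cells of a type and less RNA per cell cannot be told apart, and the sources used here do not say how much of each nucleus a sample held. Markers of other cells moved with the average too, in both directions. Of 16 hypothalamic and medial amygdala genes 5 had r above 0.5 and 0 under −0.5 (median 0.308), among them Sim1 (0.673) and Oxt (0.663). Of 15 genes of the GABAergic interneuron list 3 were above 0.5, Npy (0.679), Reln (0.615) and Lhx6 (0.573), and Dlx1 was under −0.5 (−0.693). That list also holds general genes of GABAergic neurons (Gad1, Gad2, Slc32a1, Dlx1, Dlx2 and Dlx5), so its counts are not limited to interneurons. Other lists ran opposite. Of 20 probe sets of pallial excitatory neurons 4 had r under −0.5 and 0 above 0.5 (median −0.325). Of 10 astrocyte genes 5 were under −0.5 (median −0.458), of 9 oligodendrocyte genes 4 (median −0.475), and of 9 thalamic probe sets 2 (median −0.380), where 8.91% of all probe sets were. The 2 thalamic ones were Prkcd, which is also in the amygdala list above, and a probe set of Zic4 (−0.845). The other probe set of Zic4 had the opposite sign (0.360). The mean level of the pallial list lay between 7.40 and 8.42 in KO stress, 7.48 and 8.48 in KO con, 7.58 and 8.67 in WT stress and 7.51 and 7.95 in WT con. That of the thalamic list lay between 7.96 and 9.02 in KO stress, 7.53 and 8.94 in KO con, 7.25 and 9.12 in WT stress and 7.73 and 9.31 in WT con. That of the astrocyte list lay between 9.28 and 9.62 in KO stress, 9.12 and 9.47 in KO con, 8.56 and 9.50 in WT stress and 9.12 and 9.44 in WT con, and that of the oligodendrocyte list between 8.78 and 9.24 in KO stress, 8.96 and 9.19 in KO con, 8.62 and 9.19 in WT stress and 8.88 and 9.22 in WT con. Slc17a7, the vesicular glutamate transporter of pallial neurons, ran over 6.92 to 11.04 in the 20 arrays and Tcf7l2, a transcription factor of thalamic neurons, over 7.37 to 10.88. The part of these cells in the spread of the markers was not tested. Microglia (0 of 8 above 0.5 or under −0.5, median 0.0276) and endothelium (1 of 8 under −0.5, median −0.0605) had medians closer to 0.0728, that of all probe sets. Choroid plexus had 1 of 9 under −0.5 and a median of −0.218, with values between −0.772 (Otx2) and −0.0828.

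**Figure D5:**
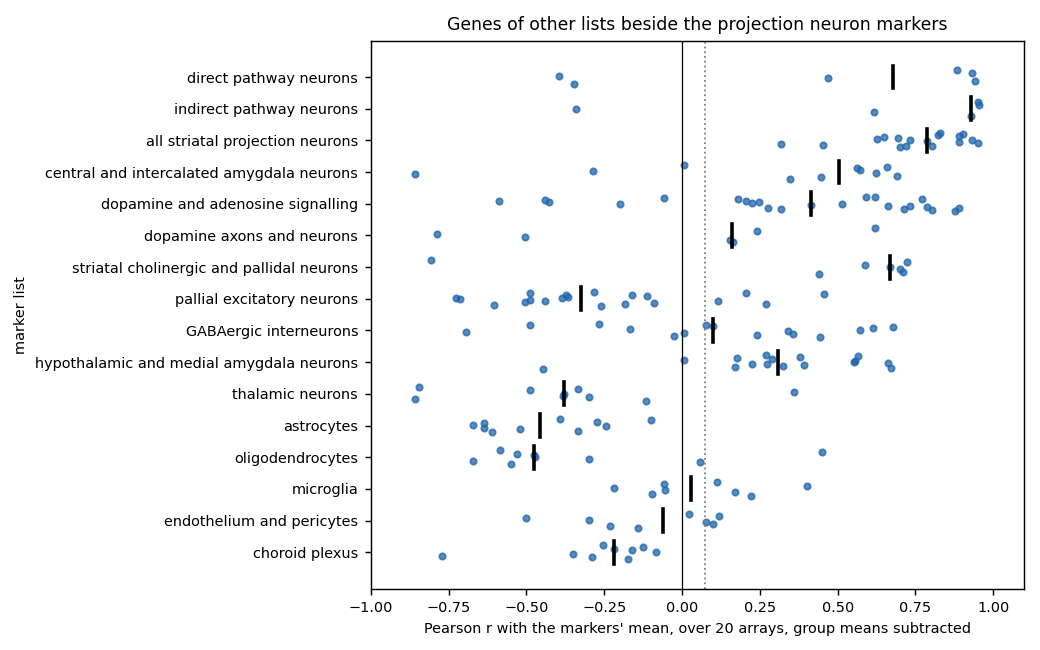
Pearson r with the average of the markers over 20 arrays, group means subtracted (x axis), for each probe set (points) of 16 gene lists (rows). Black bars are list medians and the dotted line is the median of all probe sets, 0.0728. Medians of striatal lists lie to the right, although Sp9, Sfxn1 and Eya1 have negative r. Medians of the pallial, astrocyte, oligodendrocyte, thalamic and choroid plexus lists lie to the left.

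Isl1 ran with another set of genes. Besides Gad2 these were Peg10 (0.854), Calcr (0.796), Nts (0.788), Tacr3 (0.781), Slc32a1 (0.755), Gad1 (0.737) and Crh (0.704), named after their values had been seen. Slc32a1 loads GABA into vesicles and Gad1 is the other enzyme that makes it, while Nts, Crh and the receptors Calcr and Tacr3 belong to neuropeptide signalling. Of 16 hypothalamic and medial amygdala genes 7 had r above 0.5 with Isl1 (median 0.472). Of 10 genes of central and intercalated amygdala neurons 2 did (median 0.400), Nts and Crh, while Prkcd had −0.402. Of 23 genes of the dopamine and adenosine signalling list, which holds Tacr3, 4 did (median −0.0304). Of 7 cholinergic and pallidal genes 3 did (median 0.478), namely Lhx8 (0.691), Gbx1 (0.617) and Nkx2-1 (0.602). Of 15 genes of the GABAergic interneuron list 6 did (median 0.266). Besides Gad2, Slc32a1 and Gad1 these were Dlx5 (0.697), Lhx6 (0.594) and Dlx2 (0.527). Sst (0.462), Vip (0.0599), Pvalb (−0.00801), Calb2 (−0.0211), Npy (−0.0771), Htr3a (−0.301) and Cck (−0.765) of that list did not. Of 17 genes shared by striatal projection neurons 1 did, against 6.25% of all probe sets. Pallial genes had a median r of −0.56 with it, and Slc17a7 −0.823. The GABAergic list had mean levels between 8.59 and 8.82 in KO stress, 8.58 and 8.93 in KO con, 8.20 and 8.87 in WT stress and 8.53 and 8.67 in WT con. The hypothalamic and medial amygdala list had mean levels between 6.46 and 7.59 in KO stress, 6.59 and 6.93 in KO con, 6.22 and 7.18 in WT stress and 6.38 and 6.85 in WT con, so that both lists had their lowest array in WT stress. Their part in the Isl1 values was not tested.

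None of the genes of the related lists passed the adjusted threshold of limma in any comparison. Many of these genes ran with the markers' average from mouse to mouse, so the genes counted in a list are not separate observations. The shared striatal and the signalling lists also have Adcy5, Gnal, Gng7, Pde1b and Rgs7bp in common. In WT stress against WT con, 15 of the 17 shared striatal genes were higher (median 0.37, 13 of 17 with arrays centred on their medians), and 2 of them had an unadjusted limma p under 0.05, Ppp1r16b at 0.38 (SE 0.16, exact permutation p = 0.0317) and Bcl11b at 0.57 (SE 0.26, exact permutation p = 0.0635), where 3.54% of all probe sets had one. Of the 23 signalling genes 17 were higher (median 0.08, 14 with arrays centred on their medians), with Ppp1r1a, another phosphatase inhibitor, at 0.47 (SE 0.21, exact permutation p = 0.0397) and the kinase subunit Prkacb at −0.20 (SE 0.09, exact permutation p = 0.0714). Of the indirect pathway genes Sp9 had −0.44 (SE 0.17, exact permutation p = 0.0476). In the same comparison Gad2 had −0.43 (SE 0.20, exact permutation p = 0.159), Gad1 −0.32 (SE 0.14, exact permutation p = 0.111) and Slc32a1 −0.53 (SE 0.19, exact permutation p = 0.0714), the same direction as Isl1. Their list, that of GABAergic interneurons, was mixed, with 6 of 15 genes higher (median −0.13), among them Cck (1.13) and Npy (0.56). Pallial genes were higher in 17 of 20 probe sets (median 0.30), and thalamic ones in 2 of 9 (median −0.49). Of the lists named here only 2 pallial genes, Neurod6 (1.79) and Neurod2 (0.63), met the study's criterion with all arrays, where 0.24% of all probe sets did. Without the first replicates of both WT groups 16 of the 17 shared striatal genes were higher (median 0.51) and 4 met the criterion, Strip2 (1.05), Gng7 (0.87), Dclk3 (0.83) and Bcl11b (0.80), where 0.608% of all probe sets did. Of the signalling genes 21 were then higher (median 0.17) with Gng7 at the criterion, pallial genes in 16 of 20 (median 0.24) and thalamic ones in 0 of 9 (median −0.36). Neurod2 no longer met the criterion (0.61), and Gad2 (−0.36), Gad1 (−0.27), Slc32a1 (−0.39) and Isl1 (−0.48) kept their sign, each with a limma p above 0.05. Of the GABAergic interneuron list Npy (0.93) and Dlx1 (−0.86) then met the criterion, in opposite directions. The WT con array left out had the highest average of the markers (1.15), so the striatal calls gained depend on that choice.

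In KO con against WT con all 17 shared striatal genes were higher (median 0.37, 16 after quantile normalization), as were 6 of 6 direct pathway genes (median 0.28), 4 of 5 indirect pathway genes (median 0.16) and 21 of 23 signalling genes (median 0.18, 18 after quantile normalization). Without the first replicates of WT con and WT stress the counts were 17 of 17, 6 of 6, 4 of 5 and 23 of 23, and the criterion, met by 0 of these genes with all arrays, was met by 4 of the 17 shared striatal genes (Dclk3, Gng7, Rgs4 and Pde1b, at 0.67 to 0.95), by 2 direct pathway genes, Pdyn (0.98) and Chrm4 (0.70), and by 3 signalling genes, Gng7, Pde1b and Pde7b (0.80), where 0.337% of all probe sets met it. The WT con array left out had the highest average of the markers (1.15), so these calls depend on that choice. With all arrays Penk was 0.68 higher (SE 0.60, exact permutation p = 0.214) and Pdyn 0.53 higher (SE 0.48, exact permutation p = 0.405). An unadjusted limma p under 0.05 was reached by Ppp1r16b, at 0.36 (SE 0.16, exact permutation p = 0.103), and by the amygdala gene Tshz1, at 0.51 (SE 0.21, exact permutation p = 0.0397), where 3.57% of all probe sets had one. Pallial genes were higher in 15 of 20 probe sets (median 0.13; 12 of 20, median 0.05, without the first WT replicates). Microglial genes were higher in 7 of 8 (median 0.19), C1qb by 0.31 (SE 0.12, exact permutation p = 0.00794) and Itgam by 0.23 (SE 0.10, exact permutation p = 0.0159), and choroid plexus genes were lower in 9 of 9 (median −0.38). The mean level of the microglial list lay between 7.64 and 8.04 in KO con and between 7.51 and 7.65 in WT con, and that of the choroid plexus list between 6.57 and 7.27 in KO con and between 6.77 and 7.72 in WT con. Their part in the differences of the markers was not tested.

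In KO stress against KO con 0 of the 17 shared striatal genes were higher (median −0.16), none with a limma p under 0.05, where 1.13% of all probe sets had one. Choroid plexus genes were higher in 9 of 9 (median 1.07), and 5 of them met the study's criterion, where 0.139% of all probe sets did. The mean level of the choroid plexus list lay between 7.04 and 9.60 in KO stress and between 6.57 and 7.27 in KO con. It ran over 6.53 to 10.38 in WT stress and 6.77 to 7.72 in WT con, so that the highest array was a WT stress one. Between WT stress and WT con choroid plexus genes were higher in 7 of 9 (median 0.37), with 0 at the criterion. Their part in the marker values was not tested.

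In KO stress against WT stress the related lists split. Of the 17 shared striatal genes 5 were higher (median −0.13; 4 after quantile normalization, and 7 with a median of −0.01 without the first WT replicates), and of the signalling genes 8 of 23 (median −0.07), while genes of central and intercalated amygdala neurons were higher in 9 of 10 (median 0.22; 7 of 10, median 0.05, without the first WT replicates). Among the pathway genes Sp9 was 0.46 higher (SE 0.17, exact permutation p = 0.0238) and Sfxn1 0.39 higher (SE 0.17, exact permutation p = 0.0397), short of the study's criterion. Of 15 genes of the GABAergic interneuron list 4 had an unadjusted limma p under 0.05, where 9.28% of all probe sets had one. Of these 4, 3 met the criterion, all transcription factors of GABAergic neurons, where 0.768% of all probe sets met it. Dlx2 was 0.72 higher (SE 0.23, exact permutation p = 0.00794), Dlx1 0.95 higher (SE 0.36, exact permutation p = 0.00794) and Dlx5 0.80 higher (SE 0.30, exact permutation p = 0.119). For Dlx1 and Dlx2 the groups did not overlap, as was so for 1.02% of all probe sets. The fourth, Slc32a1, was 0.46 higher (SE 0.19, exact permutation p = 0.135). The criterion was also met by Slc18a2 (0.67), Peg10 (1.05) and Neurod6 (−1.34). Of 10 astrocyte genes 3 had a limma p under 0.05, against 9.28% of all probe sets. Astrocyte genes were higher in 9 of 10 (median 0.20), and in 5 of 10 (median 0.02) without the first WT replicates. With all arrays thalamic probe sets were higher in 8 of 9 (median 0.50) and choroid plexus genes in 8 of 9 (median 0.58). Hypothalamic and medial amygdala genes were higher in 13 of 16 (median 0.26), and pallial probe sets in 7 of 20 (median −0.20). Without the first WT replicates Dlx1 (0.83) and Dlx2 (0.68) still met the criterion, Pvalb (−0.84) newly did, and Dlx5 (0.58), Slc18a2 (0.61), Peg10 (0.77) and Neurod6 (−1.37) did not, where 0.407% of all probe sets met it. The part of these cells in the values of the markers was not tested.

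The interaction of the shared striatal genes was negative in 16 of 17 with a median of −0.59, and that of the signalling genes in 22 of 23 with a median of −0.20 (20 of 23 after quantile normalization). Ppp1r16b (−0.54, SE 0.23) and Rgs7bp (−0.60, SE 0.26), a partner of Rgs9 family proteins at the membrane, had the smallest limma p and were the only shared striatal genes with one under 0.05, where 2.52% of all probe sets had one. Rgs7bp met the study's criterion, as did 0.591% of all probe sets. In the opposite direction Sp9 of the indirect pathway list met it at 0.63 (SE 0.24), and of the GABAergic interneuron list Dlx1 (1.27), Dlx2 (0.78) and Pvalb (−1.17) did. Without the first replicates of both WT groups 17 of 17 shared striatal genes were negative (median −0.74) and 5 met the criterion, Strip2, Gng7, Bcl11b, Rgs7bp and Ppp1r16b, at −1.20 to −0.68, where 1.17% of all probe sets did. Of the signalling genes 21 of 23 were then negative (median −0.30), and Sp9 was at 0.73. Here too the WT con array left out was the one with the highest average of the markers.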

How the data were processed

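RNA from the amygdalae of 20 mice was hybridized to Affymetrix Mouse Gene 1.0 ST arrays. ExonRMA, run in ArrayAssist, was used by the authors for summarization and normalization, and they deposited variance-stabilized log2 values for 28767 probe sets, which were used unchanged. Of these 21776 carry a single symbol in the platform annotation. Genes and lists were chosen with earlier results of these data known, so that counts over a list are descriptions. Differences were tested with limma 3.58.1 in R 4.3.3 (linear model of the 4 groups, eBayes, 16 residual degrees of freedom) and, per gene, by exact permutation. Correlations used 100000 permutations within groups, for which 1e-05 is the smallest possible p. Further genes named are those with the highest or lowest correlation, the 3 smallest p per list described, cell type markers given by their level or correlation, and Slc6a4. Names chosen after values were seen are members of those lists. Python 3.11.15 and matplotlib 3.10.9 drew the figures.

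The labels number the replicates without saying what a number means. Deviations from group means correlated at 0.162 to 0.420 for all 5 same-numbered WT pairs, so that the number was fitted as a block in WT. KO con and WT con also had positive values for all 5 pairs, 0.0603 to 0.331, but were not blocked on their own. Pairs of groups with KO stress had values down to −0.0525. The same number was the best match in 3 of 5 pairs both for WT stress and WT con and for KO con and WT con. Alternatives were the methods' t-test, limma on 2 groups, quantile normalization, centring on medians, a mean of 5 or more, robust eBayes, array weights, the block and each array left out. Depth does not apply to arrays, whose number limits the precision. Correlations within the lower and the higher arrays, and without subtracting group means, other scalings of the list counts and list values without the first WT replicates were added after the data were seen.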

Additional observations from a re-analysis of the deposited data

Results flagged for a closer look

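In 3 of 36 groups tested (8 markers and Slc6a4 in 4 groups of 5) a single array lay far from the rest, measured as the gap to its nearest neighbour divided by the range of the group. Chance gives about 1 such group in 20. Gpr6 in WT con had a ratio of 0.897, with replicate 1 at 9.60 and the next highest mouse at 7.39. Ppp1r1b in WT con had a ratio of 0.739, with the same replicate at 10.72 and the next at 8.50. Rgs9 in KO stress had a ratio of 0.775, with replicate 5 at 7.89 and the next lowest mouse at 9.58.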

How the results depend on the processing

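With all arrays no median difference of the 8 genes exceeded the spread between mice, an SD of 0.825 for the average of the markers, so that a small shift against that spread says nothing about stability. Leaving out single arrays moved the median over −0.38 to 0.08 for KO stress minus KO con, 0.08 to 0.87 for WT stress minus WT con, 0.22 to 0.91 for KO con minus WT con, −0.39 to 0.30 for KO stress minus WT stress and −1.05 to −0.30 for the interaction, so that 2 of the 5 changed sign. Array weights gave 0.74 for WT stress minus WT con, 0.78 for KO con minus WT con and 0.12 for KO stress minus WT stress. The count of genes at the study's criterion, 0 in the deposited values, was 0 to 2 for WT stress against WT con and 0 to 1 for KO stress against WT stress when single arrays were left out, and 0 in the other comparisons. It was 1 for WT stress against WT con without both replicate 1 arrays of WT, and 1 for KO con against WT con with array weights. The replicate number as a block changed no call, with the count of genes at the criterion at 0 and Ppp1r1b at 0.90 in the WT pairing. Signs changed for Drd2 in WT stress minus WT con when arrays were centred on their medians (−0.0072), for Gpr6 in KO stress minus WT stress after quantile normalization (−0.014) and for Drd1 in KO stress minus WT stress without both replicate 1 arrays of WT (0.079). Leaving out single arrays gave, for KO stress minus KO con, −0.37 to 0.44 in Ppp1r1b, −0.24 to 0.065 in Drd2, −0.17 to 0.057 in Isl1, −0.42 to 0.28 in Rgs9, −0.79 to 0.018 in Tac1, −0.39 to 0.13 in Pde10a and −0.31 to 0.16 in Gpr6. For WT stress minus WT con it gave −0.15 to 0.27 in Drd2, −0.10 to 0.62 in Gpr6 and −0.030 to 1.04 in Tac1. For KO stress minus WT stress it gave −0.45 to 0.45 in Rgs9, −0.47 to 0.63 in Tac1, −0.24 to 0.30 in Gpr6 and −0.47 to 0.079 in Drd1, and for the interaction −0.32 to 0.099 in Drd2 and −0.67 to 0.054 in Gpr6. Of the values of single genes 1087 kept their direction and side of the criterion, 9 newly met it and 56 changed sign, and the cause was not tested. The median correlation of the 21 pairs without Isl1 was 0.507 within the 9 lower arrays and 0.697 within the 11 higher ones, and 0.885 to 0.915 with single arrays left out.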
